A study of Mus musculus with 12 samples.

Results

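RNA-Seq levels of 50 genes of meiosis and the germline were followed in NE-4C cells, a mouse neural progenitor line. The genes were taken by symbol from a list of meiotic cohesin, synaptonemal complex, recombination, piRNA and germ cell genes, and all 50 were found among the 57010 genes of the deposited table. The genes were chosen by their read levels in KO against WT libraries of these data, since the list was drawn up with those differences known. For that reason every difference between KO and WT below is a description of levels, counts and fold changes, and only the comparisons of retinoic acid (RA) with untreated cells within a genotype are given with a test.

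The study asked what loss of the ER adaptor protein FAF2 does to neural progenitors and to their differentiation. Each of 4 groups held 3 libraries from independent passages. WT NO was the parental line without RA at day 0, and WT RA was the same line after 24 h in 1 µM all-trans RA, collected on day 3. KO NO and KO RA were the Faf2 KO line under the same conditions. Untreated cells were taken on day 0 and RA cells on day 3, so RA and the longer culture cannot be told apart. All groups share the p53 deletion that immortalized NE-4C cells, and the KO is 1 line grown from a picked colony after CRISPR/Cas9 deletion of exon 4 of Faf2, so the deletion and the clone cannot be told apart. The passages of 1 line are the replicates, so the spread given is that between passages.

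Library totals ranged from 17370069 to 30738717 deposited counts. Faf2 itself, which is counted over the whole gene and therefore checks an exon deletion only in part, was at 36.0 CPM or more (counts per unit of library size, scaled between libraries with TMM factors) in every WT NO library and 21.0 to 25.4 CPM in KO NO. After RA it was at 35.1 to 49.1 CPM in WT and 18.7 to 36.1 CPM in KO, where the groups overlapped. It was not called lower by edgeR untreated (log2 fold change -0.87, SE 0.27) or after RA (-0.45, SE 0.27). KO RA replicate 3 stood apart from all other libraries, with a median absolute log2 difference from its group of 1.20 against 0.188 to 0.664 elsewhere and a TMM scaling factor of 0.394. Fold changes of the called genes in KO RA are given with and without it. Markers of neural progenitors (Nes, Sox2, Pax6, Otx2 and Cdh2) were above the floor in every group, at a summed 254 to 300 CPM in WT NO and 255 to 289 CPM in KO NO. Among them Pax6 was called lower in KO NO (log2 fold change -2.50, SE 0.45).

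Meiosis reduces the chromosome set by a programme found in germ cells only. Chromosomes are held by a meiotic form of cohesin, cut on purpose by SPO11, repaired against their homologues by recombination proteins, and zipped together by the synaptonemal complex. Piwi proteins and their Tudor-domain partners, the piRNA pathway, silence transposons in the same cells. In somatic cells many of these genes are kept silent by DNA methylation of CpG-rich promoters and by repressor complexes that bind E-box and E2F-type sequences.

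Most of the 50 genes stayed low, and a minority carried the difference between KO and WT cells. On the CPM scale, which here is already corrected for gene length, 33 of 50 genes were under 1 CPM on average in every group. Stra8, the gene that RA switches on at meiotic entry, Sohlh2, a regulator of spermatogonia, and Asz1, a piRNA pathway protein, had 0 counts in all 12 libraries. A mean of 1 CPM or more was reached by 10 genes both in WT NO and in WT RA, by 16 genes in KO NO and by 15 genes in KO RA. The floor, no more than 3 counts in each of a group's libraries, held 24 genes for WT NO and 28 for WT RA but 11 for KO NO and 14 for KO RA. The name "derepressed in knockout" thus described part of the list, and most of its defining germ cell genes remained near 0 in all groups.

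**Figure D1:**
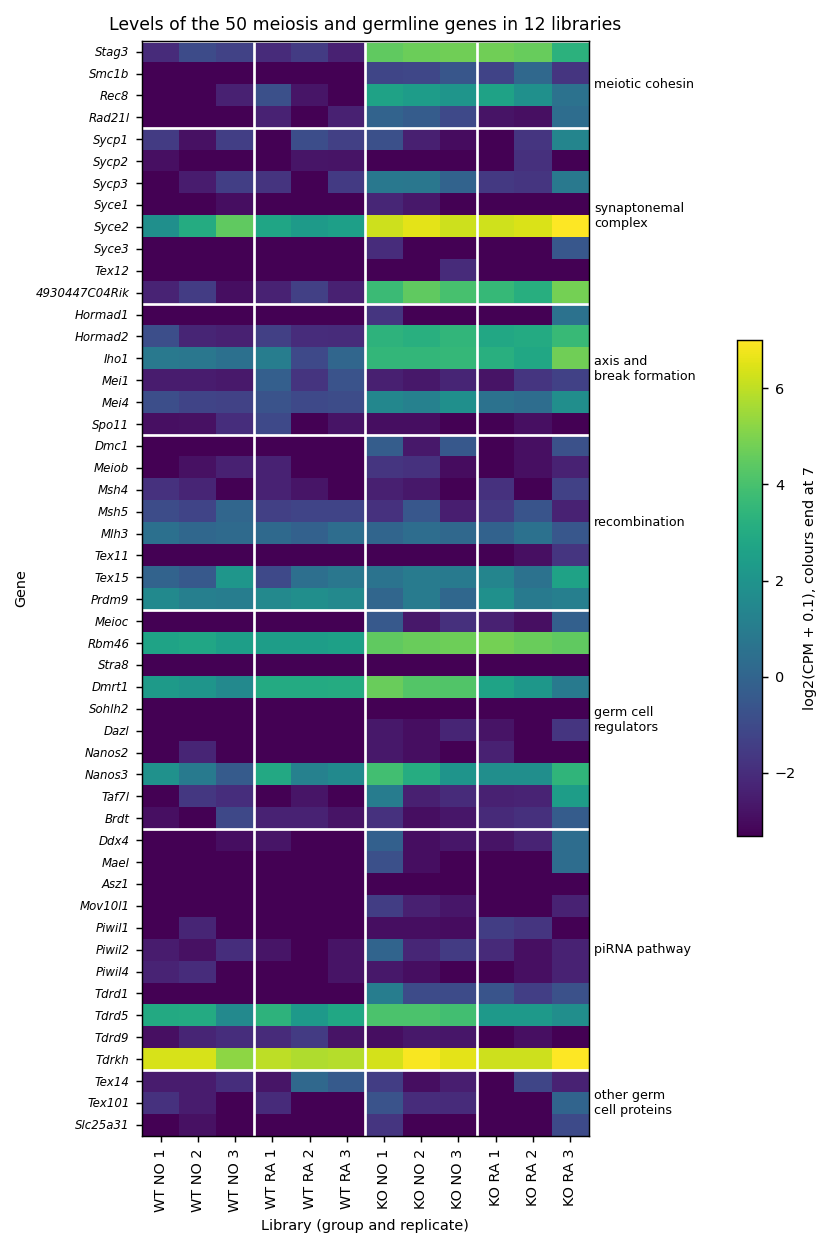
Level of each of the 50 genes (vertical axis, by role) in each of the 12 libraries (horizontal axis, by group), coloured by log2(CPM + 0.1); colours end at 7. The KO libraries are brighter than the WT libraries for a few genes such as Stag3, Syce2 and Hormad2, while Stra8, Sohlh2 and Asz1 are at 0 throughout.

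The start regions of the most abundant genes are shown because they hold, or lack, the E-box and E2F-type letters named above. They belong to the 6 genes with the highest mean level in KO NO among the 44 that have an entry in the RefSeq promoter table (Dmrt1, Meiob, Piwil2, Spo11, Tex11 and Tex15 have none). Each runs 5′ to 3′ from 250 bases before to 50 bases after the RefSeq start. The table's build is GRCm38.p6, and every sequence was found exactly once in GRCm39, whose coordinates are given. Capitals mark CACGTG (E-box) and TCCCGC (E2F-type), searched on both strands.
Syce2 (chr8:85598490-85598789, plus strand): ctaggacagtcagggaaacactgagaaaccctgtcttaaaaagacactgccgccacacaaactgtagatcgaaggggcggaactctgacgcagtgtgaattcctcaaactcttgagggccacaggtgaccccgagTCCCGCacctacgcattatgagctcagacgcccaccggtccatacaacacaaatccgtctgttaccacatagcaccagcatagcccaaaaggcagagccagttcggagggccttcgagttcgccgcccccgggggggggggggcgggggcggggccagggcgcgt
4930447C04Rik (chr12:72964490-72964789, minus strand): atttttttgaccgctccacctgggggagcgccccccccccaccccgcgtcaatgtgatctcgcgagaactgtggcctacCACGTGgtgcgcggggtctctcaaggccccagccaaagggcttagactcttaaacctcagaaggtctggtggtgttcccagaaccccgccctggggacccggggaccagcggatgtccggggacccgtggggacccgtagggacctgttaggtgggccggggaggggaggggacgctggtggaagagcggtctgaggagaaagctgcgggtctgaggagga
Stag3 (chr5:138278521-138278820, plus strand): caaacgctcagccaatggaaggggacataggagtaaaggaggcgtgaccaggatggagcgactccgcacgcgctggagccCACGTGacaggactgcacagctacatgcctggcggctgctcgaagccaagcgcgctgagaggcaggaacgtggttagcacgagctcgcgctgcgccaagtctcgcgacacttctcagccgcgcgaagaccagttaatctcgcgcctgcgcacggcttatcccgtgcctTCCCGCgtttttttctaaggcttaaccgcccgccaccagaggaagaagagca
Rbm46 (chr3:82783741-82784040, minus strand): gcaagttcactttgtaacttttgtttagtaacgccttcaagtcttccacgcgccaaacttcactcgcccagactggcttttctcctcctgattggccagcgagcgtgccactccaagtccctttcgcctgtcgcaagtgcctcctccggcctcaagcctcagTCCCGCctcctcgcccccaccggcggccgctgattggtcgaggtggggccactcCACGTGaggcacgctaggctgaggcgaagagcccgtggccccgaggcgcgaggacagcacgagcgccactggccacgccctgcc
Tdrd5 (chr1:156130869-156131168, minus strand): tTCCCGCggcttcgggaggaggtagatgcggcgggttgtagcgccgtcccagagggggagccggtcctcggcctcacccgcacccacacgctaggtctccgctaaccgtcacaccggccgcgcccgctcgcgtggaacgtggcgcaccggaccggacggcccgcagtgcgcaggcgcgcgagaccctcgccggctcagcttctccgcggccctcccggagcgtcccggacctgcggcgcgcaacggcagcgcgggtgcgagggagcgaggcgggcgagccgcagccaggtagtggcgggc
Tdrkh (chr3:94320301-94320600, plus strand): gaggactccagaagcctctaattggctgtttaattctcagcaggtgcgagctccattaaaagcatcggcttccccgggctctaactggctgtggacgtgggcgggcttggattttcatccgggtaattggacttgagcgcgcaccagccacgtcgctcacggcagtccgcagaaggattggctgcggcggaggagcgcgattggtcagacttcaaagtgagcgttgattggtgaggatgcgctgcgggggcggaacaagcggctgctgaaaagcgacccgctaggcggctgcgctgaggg
Stag3 and Rbm46 hold both motifs. In Stag3 the E-box begins at -170 and the E2F-type letters at -2 from the start, and in Rbm46 they begin at -34 and -88. 4930447C04Rik holds the E-box alone, at -171, whereas Syce2 and Tdrd5 hold TCCCGC alone, at -115 and -249. Tdrkh, the gene with the highest level of all 50 in WT NO, holds neither.

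E-box and E2F-type letters were found in more of the 44 promoters than of all promoters in the table. CACGTG was in 16 of 44 (36.4%) against 7.15% of 32851 promoters of the same length. TCCCGC was in 18 of 44 (40.9%) against 6562 of the 32851, and the longer TTCCCGC, which contains it, in 12 of 44 (27.3%) against 4.60%. The promoters were also richer in CpG, with a median observed over expected ratio of 0.693 against 0.384. Among promoters with at least 15 CpG, 34 genes of the set had CACGTG in 44.1%, TCCCGC in 52.9% and TTCCCGC in 35.3%, and all 11378 such promoters had them in 11.3%, 45.4% and 10.3%. The genes called higher in KO NO did not stand out within the set: 4 of the 7 with an entry held CACGTG or TCCCGC, as did 21 of the other 37. With only the 250 bases before the start, the number of genes with CACGTG or TCCCGC was again 25 of 44. These are matches of letters and not binding sites.

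**Figure D2:**
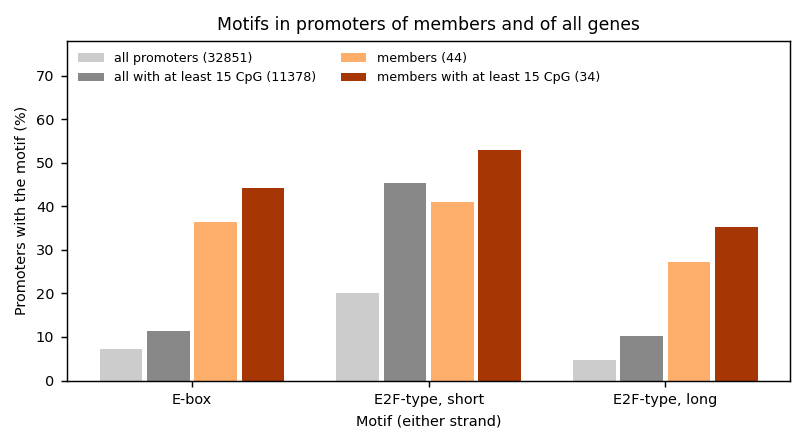
Share of promoters (vertical axis, %) that hold the E-box CACGTG, the short E2F-type TCCCGC or the long E2F-type TTCCCGC on either strand, for all promoters in the table, all with at least 15 CpG, the 44 promoters of the set and the 34 of these with at least 15 CpG. The E-box share is 36.4% in the set and 7.15% in all promoters, while for TCCCGC the CpG-rich promoters are close, at 52.9% and 45.4%.

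Of the 50 genes, 22 passed the filter on low counts and 28 did not. A gene low in WT could pass only through the libraries where it was high, so the counts below describe these genes and support nothing. In KO NO against WT NO, edgeR called 8 of the 22 higher (Stag3, Rec8, 4930447C04Rik, Hormad2, Iho1, Mei4, Rbm46 and Dmrt1), beside 0.788% of the 16502 genes tested. None was called lower, beside 0.351% of all genes. At an unadjusted p under 0.05 there was 1 lower gene, Prdm9. It was also called by limma-voom, which called 10.8% of all genes lower, and not by DESeq2. In KO RA against WT RA, 6 were called higher (Stag3, Syce2, 4930447C04Rik, Hormad2, Iho1 and Rbm46), beside 0.885% of all genes, and none lower, beside 0.358%. At an unadjusted p under 0.05 there was 1 lower gene, and DESeq2 and limma-voom called none lower. The median log2 fold change of the 22 genes was 2.62 untreated and 2.14 after RA, where that of all genes was -0.02 and 0.09. It was 2.28 and 1.81 with genes at 0 in WT set to their lower bound.

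By values alone, each KO NO library exceeded each WT NO library in 15 of the 22 genes (15.5% of all genes tested) and below them in 1 (15.2%). After RA the KO libraries were all higher in 11 genes (9.97%) and all lower in 2 (10.9%). Without KO RA replicate 3 the calls rose to 13 untreated and 9 after RA, and those over all genes to 4.43% and 4.42%. That fit also had 17327 genes and 24 of the set past the filter.

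**Figure D3:**
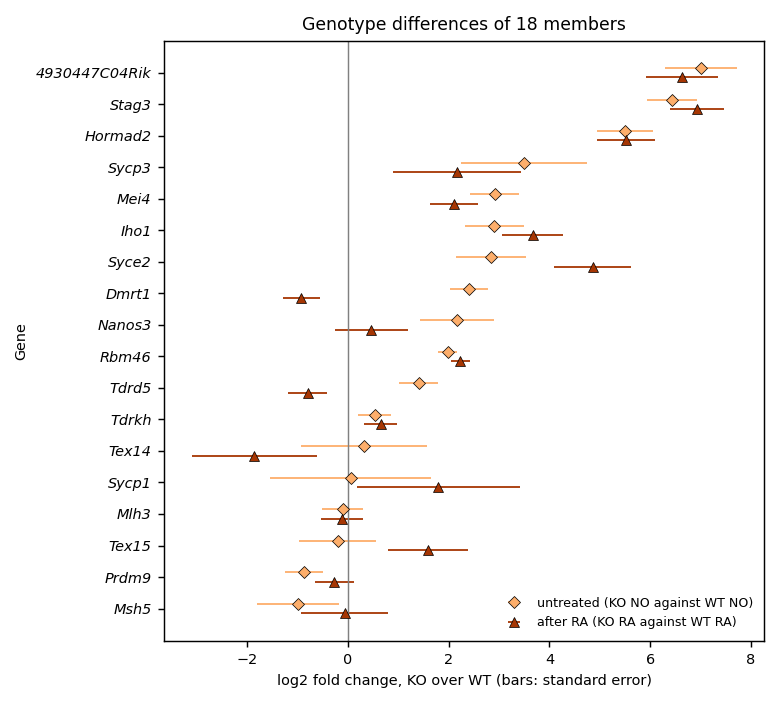
Log2 fold change of KO over WT (horizontal axis) with its standard error, untreated (diamonds) and after RA (triangles), for the tested genes other than Rec8, Smc1b, Rad21l and Tdrd1, whose WT libraries were at or near 0. Stag3, 4930447C04Rik and Hormad2 lie above 5 in both conditions. Dmrt1, Tdrd5 and Tex14 lie right of 0 untreated and left of it after RA, and for Tex14 the WT and KO libraries overlapped in both conditions.

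All 4 meiotic cohesin genes had higher levels in every KO NO library than in any WT NO library, as did 15.5% of all genes tested. Of these 4, Smc1b and Rad21l passed the filter on low counts only through KO libraries. Stag3, the cohesin subunit specific to meiosis (chromosome 5), was at 0.141, 0.407 and 0.305 CPM in WT NO and 22.5, 25.3 and 27.1 CPM in KO NO. It was at 0.144, 0.242 and 0.0955 CPM in WT RA and 26.7, 23.9 and 9.81 CPM in KO RA, with KO RA replicate 3 the lowest. The log2 fold change was 6.44 (SE 0.50) untreated and 6.93 (SE 0.54) after RA (7.25 without KO RA replicate 3), and the WT and KO libraries did not overlap.

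Rec8, the meiotic kleisin that closes the cohesin ring (chromosome 14), had no counts in 2 WT NO libraries and 0.0916 CPM in the third, against 6.01, 5.15 and 4.08 CPM in KO NO. The pooled ratio of KO NO to WT NO was 149, with a nominal 95% counting interval of 50.7 to 724. It rests on 3 WT counts and takes a deposited count, which is scaled from TPM, for 1 fragment. In WT RA Rec8 was at 0.481, 0.0485 and 0 CPM and in KO RA at 6.05, 3.51 and 1.39 CPM (log2 fold change 4.35, SE 1.06, not called). Among the fits that left out 1 library it was called only without KO RA replicate 3 (4.72). Of 20 alternatives 5 called this difference, DESeq2 and limma-voom among them. Smc1b and Rad21l, the other meiosis-specific cohesin subunits, had 0 counts in all WT NO libraries. Against a floor of 3 counts per library they were at least 4.20-fold and 6.43-fold higher in KO NO, at means of 0.431 and 0.660 CPM. After RA Smc1b had 0 counts in WT and 0.316, 1.02 and 0.198 CPM in KO. Rad21l was at 0.0961, 0 and 0.0955 CPM in WT RA and 0.0451, 0.0341 and 1.19 CPM in KO RA, so only KO RA replicate 3 was above WT. The interval and floors here cover no more than counting error, on the scale of the deposited counts.

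Of the 8 synaptonemal complex genes, Syce2 and 4930447C04Rik were at 8.76 CPM or more in every KO library, and the other 6 stayed at or below 1.67 CPM outside KO RA replicate 3. Syce2, a protein of the central element, was the highest of the set in KO NO after Tdrkh. It was at 3.38, 8.17 and 22.3 CPM in WT NO and 73.6, 95.6 and 73.6 CPM in KO NO (log2 fold change 2.84, SE 0.70, not called). Of 21 alternatives 6 called this untreated difference, DESeq2 and limma-voom among them. After RA it was at 6.59, 4.85 and 5.64 CPM in WT and 76.1, 84.6 and 335 CPM in KO (4.86, SE 0.77), and without the high KO RA replicate 3 at 3.81. WT NO replicate 3 was the highest WT library, and no WT library reached the lowest KO library.

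4930447C04Rik, also known as Six6os1 and needed for the central element, was at 0.106, 0.259 and 0.0305 CPM in WT NO and 13.2, 22.2 and 15.7 CPM in KO NO (log2 fold change 7.01, SE 0.71). In WT RA it was at 0.0961, 0.291 and 0.0955 CPM and in KO RA at 12.1, 8.76 and 28.6 CPM (6.63, SE 0.71, and 5.97 without KO RA replicate 3). Groups of different genotype did not overlap. Sycp3, which builds the lateral element, was at 0, 0.0739 and 0.275 CPM in WT NO and 1.67, 1.63 and 0.866 CPM in KO NO (log2 fold change 3.49, SE 1.25, not called). It was at 0.192, 0 and 0.239 CPM in WT RA and 0.226, 0.204 and 1.68 CPM in KO RA, where the groups overlapped. Sycp1, the transverse filament protein without which no complex forms, averaged 0.195 CPM in the untreated KO and 0.186 CPM in the untreated WT cells.

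Genes on the opposite strand overlap some of these genes, and whether counting used strand is not given in the sources used here. Gcdh, the partner of Syce2, was at 18.1 to 22.5 CPM in WT NO and 14.5 to 16.3 CPM in KO NO, and after RA at 21.0 to 30.7 CPM in WT and 7.58 to 15.3 CPM in KO, where it was called lower (log2 fold change -1.32). Six6, the partner of 4930447C04Rik, was at most 0.0610 CPM, Rbm46os, the partner of Rbm46, at most 0.496 CPM, and 1700102P08Rik, the partner of Iho1, at most 0.625 CPM in any library.

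Among the genes of the chromosome axis and of break formation, 3 of 6 passed the filter, and Hormad1, Mei1 and Spo11 did not. All 3 that passed were called higher in KO NO, beside 0.788% of all genes tested. Hormad2, an axis protein of unsynapsed chromosomes (chromosome 11), was at 0.458, 0.111 and 0.0916 CPM in WT NO and 10.1, 9.09 and 11.1 CPM in KO NO (log2 fold change 5.50, SE 0.56). In WT RA it was at 0.288, 0.145 and 0.143 CPM and in KO RA at 7.13, 7.80 and 12.4 CPM (5.52, SE 0.58, and 5.24 without KO RA replicate 3). The KO levels thus lay far outside the WT spread in both conditions.

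Iho1, the HORMAD1 partner that helps to recruit the break machinery (chromosome 9), was already present in WT NO at 1.69, 1.59 and 1.31 CPM and stood at 11.4, 11.4 and 11.8 CPM in KO NO (log2 fold change 2.91, SE 0.58). After RA it was at 1.97, 0.388 and 0.955 CPM in WT and 8.98, 7.05 and 26.7 CPM in KO (3.67, SE 0.61, and 2.85 without the high KO RA replicate 3). Mei4, which acts with it in break formation (chromosome 9), was at 0.458, 0.333 and 0.305 CPM in WT NO and 2.64, 2.25 and 3.43 CPM in KO NO (2.91, SE 0.48). After RA Mei4 was at 0.529, 0.388 and 0.430 CPM in WT and 1.40, 1.19 and 3.37 CPM in KO (2.11, SE 0.48, not called, but called at 1.51 without KO RA replicate 3). Of 20 alternatives 5 called it, with DESeq2 on all 12 libraries and limma-voom among them and DESeq2 on the compared libraries not. Spo11, the enzyme that makes the breaks, was at or below 0.385 CPM in every library and at 0.0296 CPM or less in KO NO.

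**Figure D4:**
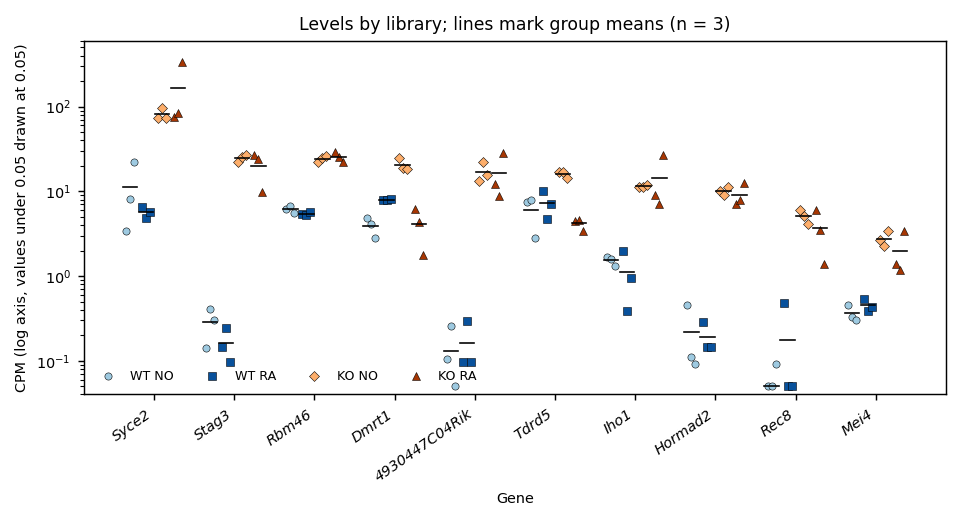
CPM (log axis; values under 0.05 drawn at 0.05) of 10 genes in WT NO (circles), WT RA (squares), KO NO (diamonds) and KO RA (triangles), each point 1 library and each line a group mean (n = 3). Stag3 is near 0.3 CPM in WT NO and at 22.5 to 27.1 CPM in KO NO, and Dmrt1 and Tdrd5 are the genes whose KO RA libraries fall below their KO NO libraries.

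Of 8 recombination genes 4 were tested, and edgeR called none of them in any comparison. Mlh3, a mismatch repair protein needed for crossovers, was at 1.30, 0.998 and 1.10 CPM in WT NO, 1.06, 0.824 and 1.19 CPM in WT RA, 0.937, 1.18 and 1.03 CPM in KO NO and 0.858, 1.33 and 0.595 CPM in KO RA. Tex15 was at 0.880, 0.628 and 4.21 CPM in WT NO, 0.385, 1.26 and 1.62 CPM in WT RA, 1.44, 1.84 and 1.73 CPM in KO NO and 2.53, 1.40 and 6.15 CPM in KO RA. Both overlapped between all groups of different genotype.

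Prdm9, the histone methyltransferase that places recombination hotspots (chromosome 17), went the other way. It was at 2.89, 2.11 and 1.98 CPM in WT NO and 0.967, 1.87 and 0.977 CPM in KO NO (log2 fold change -0.87, SE 0.38, not called), with all KO NO libraries below all WT NO libraries. After RA it was at 2.84, 3.30 and 2.82 CPM in WT and 3.52, 1.81 and 2.08 CPM in KO, which overlapped. On chromosome 17 the median of the 794 tested genes was -0.47 in the same comparison, and the part of this in the Prdm9 value was not tested. Dmc1, the strand exchange protein of meiosis, had 0 counts in all WT libraries and 0.732, 0.0592 and 0.614 CPM in KO NO. Its KO NO mean was at least 4.56-fold above the floor of 3 counts, or 3.28-fold without KO NO replicate 1, and KO NO replicate 2 was itself below the floor. In KO RA it was at 0, 0.0341 and 0.496 CPM, with a bound of 1.22-fold, or 0.118-fold without KO RA replicate 3.

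Of the 10 regulators 3 passed the filter, and Rbm46 and Dmrt1 were called higher in KO NO, beside 0.788% of all genes tested. Rbm46, an RNA-binding protein that germ cells need for meiotic entry (chromosome 3), varied little between libraries of a genotype. It was at 6.27, 6.73 and 5.49 CPM in WT NO, 5.34, 5.24 and 5.69 CPM in WT RA, 22.3, 24.8 and 26.0 CPM in KO NO and 28.9, 25.1 and 22.4 CPM in KO RA. The log2 fold change of KO over WT was 1.98 (SE 0.19) untreated and 2.23 (SE 0.19) after RA (2.31 without KO RA replicate 3).

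Dmrt1, a transcription factor of the testis that controls the switch from mitosis to meiosis (chromosome 19), was at 4.82, 4.10 and 2.78 CPM in WT NO and 24.8, 18.8 and 18.3 CPM in KO NO (log2 fold change 2.40, SE 0.38). After RA it was at 7.84, 7.81 and 8.12 CPM in WT and 6.18, 4.36 and 1.78 CPM in KO (-0.92, SE 0.37, not called, and -0.60 without KO RA replicate 3). The KO libraries were thus all above WT before RA and all below WT after it. Nanos3, which protects early germ cells, was at 3.59, 1.74 and 0.671 CPM in WT NO, 7.36, 2.23 and 2.87 CPM in WT RA, 14.7, 8.18 and 3.99 CPM in KO NO and 3.34, 3.37 and 10.7 CPM in KO RA (untreated log2 fold change 2.17, SE 0.74, not called). Taf7l reached a mean above 1 CPM in KO RA only, through KO RA replicate 3 alone. It was at 0.0903, 0.102 and 5.25 CPM there, at 1.93, 0.0889 and 0.140 CPM in KO NO, at 0, 0.222 and 0.153 CPM in WT NO and at 0, 0.0485 and 0 CPM in WT RA.

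In the piRNA pathway edgeR on all 12 libraries called no gene between genotypes. For KO NO against WT NO, 6 of 20 alternatives called Tdrd1 higher and 4 of 21 called Tdrd5 higher. DESeq2 and limma-voom were among them for both genes. After RA the alternatives with a call were 1 of 19 for Tdrd1 and 0 of 21 for Tdrd5. Tdrkh, a Tudor protein that anchors piRNA trimming at mitochondria (chromosome 3), was abundant in all groups, at 83.0, 81.9 and 38.2 CPM in WT NO, 62.1, 55.2 and 57.1 CPM in WT RA, 80.4, 118 and 95.5 CPM in KO NO and 73.3, 74.2 and 127 CPM in KO RA. Its untreated groups overlapped (log2 fold change 0.53, SE 0.33). After RA all KO libraries were above all WT libraries (0.66, SE 0.33, not called, and 0.34 without KO RA replicate 3). Tdrd5, another Tudor protein of germ granules (chromosome 1), was at 7.54, 7.91 and 2.78 CPM in WT NO and 16.9, 16.8 and 14.5 CPM in KO NO (1.41, SE 0.39, not called). After RA it was at 10.1, 4.75 and 7.02 CPM in WT and 4.51, 4.63 and 3.37 CPM in KO (-0.80, SE 0.39, not called, and -0.68 without KO RA replicate 3), so the order of the genotypes was turned, as for Dmrt1. Tdrd1 had 0 counts in all WT libraries and 1.96, 0.415 and 0.419 CPM in KO NO, at least 9.08-fold above the floor, or 4.06-fold without KO NO replicate 1. The Piwi genes themselves were low: Piwil1, Piwil2 and Piwil4 were at most 0.908 CPM in any library.

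The 28 genes outside the test were not evenly spread over the KO libraries. Their levels summed to 0.740 to 1.19 CPM in WT NO and 0.679 to 1.83 CPM in WT RA. The KO NO libraries gave sums of 7.76, 1.21 and 1.95 CPM, and the KO RA libraries sums of 1.13, 1.23 and 14.3 CPM. KO NO replicate 1 was the highest of its group for 17 of the 23 genes above 0 there (73.9%), where it was for 38.1% of all genes outside the test. KO RA replicate 3 was the highest for 17 of 23 (73.9%), against 43.8%. Ddx4, the helicase that marks germ cells, was at 0.791, 0.0296 and 0.0558 CPM in KO NO and 0.0451, 0.102 and 1.19 CPM in KO RA, and Mael, a piRNA pathway protein, at 0.469, 0.0296 and 0 CPM and at 0, 0 and 1.19 CPM. In both, 1 library of each KO group held most of the signal. In bulk RNA, more cells that express a gene and more RNA per cell cannot be told apart.

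RA cells were then compared with untreated cells within each genotype, where the choice of genes had not named the contrast. However, WT NO and KO NO also serve in the differences between genotypes. A choice by high KO NO and low WT NO values can favour a fall in KO RA and a rise in WT RA. The size of this effect was not tested. In WT cells edgeR's quasi-likelihood test called none of the 22 genes (higher in WT RA for 0, beside 0.321% of all genes, and lower for 0, beside 0.0848%). At an unadjusted p under 0.05 there was 1 higher gene, Dmrt1, and no lower gene. DESeq2 called 0 genes higher on all 12 libraries (2.56% of all genes) and 1 on the compared libraries (5.73%). With limma-voom 1 was called higher (10.8%), and neither tool called a lower gene. For Dmrt1 all 3 WT RA libraries were above all WT NO libraries (log2 fold change 1.02, SE 0.37, edgeR adjusted p = 0.276), the only such gene of the 22 (15.1% of all genes tested), and none was below (14.0%). Rbm46 gave -0.18 (SE 0.19, edgeR adjusted p = 0.773).

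In KO cells 2 genes, Dmrt1 and Tdrd5, were lower in KO RA than in KO NO by the same test (1.59% of all genes were called lower). Dmrt1 went from a mean of 20.6 ± 3.60 CPM to 4.11 ± 2.21 CPM (SD, n = 3), a log2 fold change of -2.30 (SE 0.38, edgeR adjusted p = 0.00796), and Tdrd5 from 16.1 ± 1.34 CPM to 4.17 ± 0.698 CPM, a log2 fold change of -1.94 (SE 0.40, edgeR adjusted p = 0.0196). In both, every KO RA library was below every KO NO library, which was so for these 2 genes only (17.0% of all genes), and no gene had all KO RA libraries above (13.2%). Without KO RA replicate 3 the values were -1.98 (adjusted p = 0.00116) for Dmrt1 and -1.82 (adjusted p = 0.0167) for Tdrd5. Over all alternatives the adjusted p ran from 3.15e-08 to 0.0835 for Dmrt1, lost only with edgeR on the compared libraries, and from 1.37e-09 to 0.0789 for Tdrd5, lost when any 1 of the KO NO libraries was left out. None of the 22 genes was called higher in KO RA, beside 3.89% of all genes. At an unadjusted p under 0.05 there was 1 higher gene, Prdm9 (log2 fold change 0.96, SE 0.39, edgeR adjusted p = 0.159), and DESeq2 and limma-voom called none higher.

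Rbm46 kept its KO level after RA (log2 fold change 0.07, SE 0.18, edgeR adjusted p = 0.845). Stag3, 4930447C04Rik, Hormad2 and Iho1, the other genes called in both conditions, overlapped between KO NO and KO RA and were not called by edgeR or DESeq2. limma-voom called 4930447C04Rik lower in KO RA (adjusted p = 0.0277, and up to 0.997 over the other alternatives), where it called 12.3% of all genes lower. Iho1 and Syce2 lost their call in KO RA against WT RA when any 1 WT RA library was left out.

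**Figure D5:**
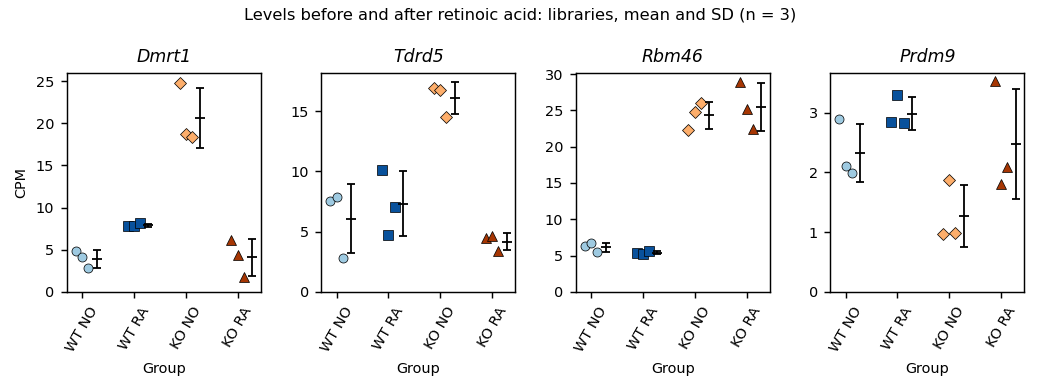
CPM (vertical axis, from 0) of Dmrt1, Tdrd5, Rbm46 and Prdm9 in the 3 libraries of each group, with mean and SD beside them. Dmrt1 is at 18.3 to 24.8 CPM in KO NO and at 1.78 to 6.18 CPM in KO RA, whereas Rbm46 is at 22.3 to 28.9 CPM in all KO libraries.

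The difference between the KO and WT responses (the interaction term) is also a difference of the genotype differences that were known when the genes were chosen, so it is given as a description. edgeR called 0% of the 16502 genes for it in either direction. The simulated data held the same change in KO NO and KO RA, so they cannot show how often edgeR finds a change in this term. What a missing call means here was therefore not tested. Dmrt1 gave a difference of responses of -3.33 on the log2 scale (SE 0.53) and Tdrd5 one of -2.21 (SE 0.55). These were the 2 genes of the set with a lower response in KO at an unadjusted p under 0.05, and 0 had a higher one. Without KO RA replicate 3 the value for Dmrt1 was -3.01, which was called, and that for Tdrd5 was -2.10, which was not. DESeq2 and limma-voom each called both genes lower and none higher, where they called 0.443% and 2.41% of all genes lower.

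Other genes of the same programmes showed the same mix of a few large differences and many low genes. Of 31 other meiosis genes, 29 were in the table and 14 were tested, with 3 called higher and 0 lower in KO NO, where 0.788% and 0.351% of all genes were called. Their median log2 fold change was 0.02. The called genes were Meiosin, the partner of STRA8 in meiotic entry (5.36, SE 0.95), Zcwpw1, a reader of the PRDM9 mark (2.85, SE 0.37), and Tex13b (2.28, SE 0.43). Zcwpw1 was at 12.9 to 26.9 CPM in WT NO and 128 to 144 CPM in KO NO, and Meiosin at 0 to 0.141 CPM and 1.90 to 3.13 CPM. After RA Meiosin (4.69, SE 0.99) and Zcwpw1 (2.28, SE 0.36) were called again. Of 16 other piRNA and germ granule genes 9 were tested, and Gpat2 was called higher in KO NO (4.14, SE 0.71), at 0.0305 to 0.211 CPM in WT NO and 1.41 to 2.76 CPM in KO NO. None of either list was called after RA in WT or KO cells.

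Markers of gonadal cells did not move together. Of 12 spermatid genes none was tested, and their sum was at most 0.858 CPM in any library. Of 11 oocyte genes 1 was tested and none called, with a sum of at most 1.76 CPM. Of 8 spermatogonia genes 5 were tested and 0 called between genotypes, at sums of 61.9 to 89.7 CPM in WT NO and 65.8 to 74.7 CPM in KO NO. The primordial germ cell list shares Pou5f1 and other genes with pluripotent and early neural cells and was high in WT NO already, at 1221 to 2398 CPM, against 1543 to 1810 CPM in KO NO. Pou5f1 alone made up 1149 to 2278 CPM of the WT NO sum, and the median log2 fold change of the 10 tested genes was 1.09 in KO NO against WT NO. Of these Dnd1, a germ cell survival protein, was called higher in KO NO (3.97, SE 0.52) and KO RA (2.35, SE 0.50). Of 9 somatic gonad genes 3 were tested and 1, Rhox5, was called higher in KO NO (5.58, SE 0.70) and KO RA (6.18, SE 0.72). It made up most of a sum of 1.89 to 7.68 CPM in WT NO and 106 to 290 CPM in KO NO. Dnd1 and Rhox5 were named after their values were seen, and the part of these lists in the results above was not tested.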

How the data were processed

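Bulk mRNA of 12 NE-4C libraries, 3 per group, was measured by paired-end RNA-Seq. With nf-core/rnaseq (STAR, Salmon, genome GRCm39) the authors made and deposited 1 table of estimated counts per gene. The values are counts scaled from TPM, so they are corrected for gene length and 1 count is not 1 fragment. Over the 3851 genes detected in a single library, values and exonic lengths had a Spearman correlation of -0.685 across genes. Groups were taken from the sample records. No sample column was left unused.

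Values were rounded and fitted in R 4.3.3 with edgeR 4.0.16 (TMM, filterByExpr, robust quasi-likelihood, 1 coefficient per group over all 12 libraries, common dispersion 0.215), which left 16502 genes; 27569 of 57010 genes were at 0 in every library. Calls were made at adjusted p under 0.05 (Benjamini-Hochberg, over all genes tested). DESeq2 1.42.0 and limma-voom (limma 3.58.1) were alternatives. Levels are CPM with TMM factors, and SE is that of the log2 fold change. The members and all lists were chosen with earlier results of these data known. Every library's value is given for members called in any comparison or at a mean of 1 CPM or more in any group; genes of related lists are named where called. Promoters came from RefSeq (GRCm38.p6), of which 44 of 50 members matched, 41 of them within 500 bases of the annotated GRCm39 start. The fit was tested on simulated data in which KO NO and KO RA held the same change. In KO NO against WT NO, over 15954 genes, it recovered 69.8% of 8-fold and 2.06% of 2-fold changes with 0 false calls. A missing call thus says little about small changes and does not exclude large ones. No change in the interaction was simulated, so recovery for it was not tested and nothing is drawn from a missing call there. Proteins were not analysed here.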

Additional observations from a re-analysis of the deposited data

Results flagged for a closer look

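Dmrt1 values moved in opposite directions after RA in the 2 genotypes, although the WT change was not called. All 3 WT RA libraries were above all WT NO libraries (so for 15.1% of all genes tested) and all 3 KO RA libraries were below all KO NO libraries (17.0%), with a difference of the responses (KO minus WT) of -3.33 on the log2 scale (SE 0.53). edgeR did not call this difference, and DESeq2 on all 12 libraries and limma-voom did.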

How the results depend on the processing

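Every fold change given for a gene of the set kept its direction under all alternatives that gave a value. For KO NO against WT NO, 8 genes were called higher. The count was 13 with DESeq2 on all 12 libraries (2.59% of all genes), 16 with DESeq2 on the compared libraries (5.59%) and 14 with limma-voom (10.9%). These shares were also above the 0.788% of the main fit. The count was 5 with the replicate block (0.303%) and 2 with at least 10 counts required in every library (which removes genes near 0 in WT). With 1 library left out it was 4 to 13, and the 13 without KO RA replicate 3 stood beside 4.43% of all genes. Genes called lower there numbered 0, and 1 (Prdm9) with limma-voom, which called 10.8% of all genes lower. In KO RA against WT RA the 6 genes called higher became 10 with DESeq2 on all 12 libraries, where 4.67% of all genes were called. They became 2 with at least 10 counts in every library, 3 with edgeR on the compared libraries and 4 to 9 with 1 library left out. In WT RA against WT NO the count of 0 higher became 1 (Dmrt1) with DESeq2 on the compared libraries (5.73% of all genes) and with limma-voom (10.8%). It was 0 to 1 with 1 library left out. In KO RA against KO NO the 2 genes called lower became 1 with edgeR on the compared libraries and 1 to 2 with 1 library left out. They became 6 with limma-voom (Dmrt1, Tdrd5, Sycp3, 4930447C04Rik, Mei4 and Rad21l), which called 12.3% of all genes lower. For the interaction, 0 lower genes became 2 with DESeq2 on all 12 libraries (0.443% of all genes) and with limma-voom (2.41%). The count was 0 to 1 with 1 library left out. Limits on the calls: Stag3, 4930447C04Rik, Hormad2 and Rbm46 were called in KO NO against WT NO with any 1 library left out. Iho1 and Mei4 lost the call without any 1 of the KO NO or WT NO libraries. Of the 12 fits with 1 library left out, 5 called Iho1 and 6 called Mei4, so Iho1 also lost the call without an RA library. Dmrt1 and Rec8 lost the call without replicate 1 or 2 of either group (Rec8 also without KO NO replicate 3). The fit with the replicate block assumes that equal numbers pair libraries. Deviations of same-numbered libraries correlated at -0.167 to 0.038, and 4 of 24 comparisons were highest for the own number, so the libraries were taken to share only a number. The cause of these changes was not tested.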

Other observations

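Dppa3, a gene of primordial germ cells and oocytes that was chosen after its values were seen, followed the same libraries as the low germline genes. It was at 14.9, 3.58 and 3.15 CPM in KO NO and at 3.75, 1.09 and 51.0 CPM in KO RA, with KO NO replicate 1 and KO RA replicate 3 highest. In WT NO it was at 0.528, 0.813 and 0.397 CPM and in WT RA at 0.529, 0.291 and 0.908 CPM.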
